A study of Mus musculus with 8 samples.

Results

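The subject is the nuclear-encoded machinery of oxidative phosphorylation in mouse liver. Its members were all array probes whose gene symbol starts with Ndufa, Ndufb, Ndufc, Ndufs, Ndufv, Sdh, Uqcr, Cox4 to Cox8 or Atp5, which gave 153 of 56605 probes and 98 of 26894 gene symbols. The rule goes by gene names alone. The name rule takes in 12 genes of assembly factors (20 probes), a pseudogene (Atp5c1-ps), the supercomplex factor Cox7a2l, and Atp5s and Atp5sl, now named Dmac2l and Dmac2, which are no subunits; these are given apart from the subunits.

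The tested livers came from female NFS/sld mice thymectomised as newborns, on day 3 of life (Tx, 4 arrays), and were taken 8 weeks later. The comparison livers came from female NFS/sld mice without thymectomy (nonTx, 4 arrays), for which neither a sham operation nor an age is stated. NFS/sld is a mouse strain in which neonatal thymectomy is used as a model of primary Sjögren's syndrome, in which the immune system attacks tear and salivary glands, and both groups share this background. Each sample was whole liver tissue, so that fewer cells of a type and less RNA per cell cannot be told apart. The labels call the replicates independent without naming animals, so the p-values reflect the spread of these samples alone.

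Oxidative phosphorylation makes ATP in the inner mitochondrial membrane. Electrons enter at complex I (NADH dehydrogenase) or complex II (succinate dehydrogenase) and pass through complex III (cytochrome bc1) and cytochrome c to complex IV (cytochrome c oxidase), and the proton gradient that complexes I, III and IV build drives complex V (ATP synthase). Most subunits are encoded in the nucleus and a few in mitochondrial DNA, and liver cells are rich in mitochondria.

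Signal over background stood in for depth. The 75th percentile of the signal ran from 224.8 to 330.0 on the Tx arrays and from 273.6 to 301.8 on the nonTx arrays, and Tx replicate 1 was the brightest of the 8. Between 51.1% and 57.1% of probes were well above background on an array, 0 spots were saturated, and the number of arrays limits the precision. All of 7 hepatocyte markers were well above background on all 8 arrays, with a summed signal of 410723 to 580272 on Tx and 513616 to 547489 on nonTx arrays. At an unadjusted p under 0.05, 1 of the 7 was lower in Tx (5.25% of all tested genes were), and 0 at an adjusted p (limma). It was Ttr, named after its values were seen, with a difference of -0.37 on its brightest probe. A dimmer Ttr probe gave 0.09 ± 0.10 (SE), so the probes of this gene disagreed in sign. The summed signal of 6 T cell markers was 847 to 1113 on Tx arrays and 1261 to 1390 on nonTx arrays, without overlap. All summed marker signals are as deposited, without scaling. Of all tested probes, 4.91% had every unscaled Tx signal below every nonTx signal. The brightest T cell marker, Cd3e, named after its values were seen, had means of 606 in Tx and 618 in nonTx livers (scaled difference 0.13 ± 0.12). All 6 were well above background on all arrays. At an unadjusted p under 0.05, 5 were lower in Tx (5.25% of all tested genes were), and 0 at an adjusted p (limma). The part of T cells in the results below was not tested.

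Of the 153 probes, 139 were well above background on all 8 arrays and 10 on none. The comparison covered the 140 probes of 95 genes that cleared background well on 3 or 4 of the 4 Tx arrays or of the 4 nonTx arrays. The genes without a tested probe were Cox7b2, Cox8b and Cox8c. Complex I had 53 tested probes of 36 genes, complex II 8 of 4, complex III 11 of 8, complex IV 17 of 16, complex V 29 of 15 and the assembly factors 17 of 12.

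Before the values, the stretch just upstream of the transcription start is shown for the gene of each complex whose probe had the smallest p, since binding sites for NRF1, for ETS factors such as GABP and for YY1 are textbook features of such promoters. The sequences are 150 bases long, are given 5′ to 3′ on the strand of the gene, end at the base before the start, and come from RefSeq on GRCm38.p6. Capitals mark matches on either strand to the palindromic NRF1 motif with any base in place of its T, to CCGGAAG (ETS) or to AANATGGC (YY1), where N is any base.
Ndufb6, chr4:40279422-40279571, minus strand: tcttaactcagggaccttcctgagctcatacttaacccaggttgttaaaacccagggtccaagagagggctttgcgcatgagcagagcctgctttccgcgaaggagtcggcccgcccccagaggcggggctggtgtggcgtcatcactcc
Sdhd, chr9:50603850-50603999, minus strand: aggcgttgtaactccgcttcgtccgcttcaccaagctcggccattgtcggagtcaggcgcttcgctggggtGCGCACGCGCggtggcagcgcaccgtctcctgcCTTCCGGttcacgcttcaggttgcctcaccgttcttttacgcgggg
Uqcrfs1, chr13:30545317-30545466, minus strand: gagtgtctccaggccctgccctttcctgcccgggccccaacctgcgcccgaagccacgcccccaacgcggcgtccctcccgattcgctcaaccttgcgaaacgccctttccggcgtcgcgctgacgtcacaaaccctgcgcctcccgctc
Cox7c, chr13:86046796-86046945, minus strand: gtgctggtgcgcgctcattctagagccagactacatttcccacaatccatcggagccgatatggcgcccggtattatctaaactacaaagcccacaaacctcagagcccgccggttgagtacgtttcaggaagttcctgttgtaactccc
Atp5g1, chr11:96075632-96075781, minus strand: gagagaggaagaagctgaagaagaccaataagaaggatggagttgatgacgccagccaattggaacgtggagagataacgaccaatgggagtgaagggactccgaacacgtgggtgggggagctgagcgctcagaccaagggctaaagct
The Sdhd stretch held 2 matches, to the NRF1 and the ETS motif, and the other stretches held 0. In the whole window of 250 bases before to 50 after the start, 81 of the 98 genes, and 67 of 82 subunit genes, had a RefSeq promoter. The NRF1 motif in this relaxed form was found in 17 of these 67 genes (25.4%), against 5.19% of 27025 genes in the promoter table. Its exact form, which reads the same on both strands and whose matches are among those of the relaxed form, was found in 5 (7.46%, against 1.07%). CCGGAAG was found in 16 (23.9%, against 9.93%) and AANATGGC in 17 (25.4%, against 6.96%). These are matches of letters and say nothing about binding in these livers.

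Across the 4 Tx and 4 nonTx livers, no oxidative phosphorylation probe passed an adjusted p of 0.05 (limma, Benjamini-Hochberg over 30955 probes), and neither did any other probe (0%). After scaling to the 75th percentile, 127 of the 140 probes had a higher mean in Tx livers and 13 a lower one, with a median log2 difference (Tx minus nonTx) of 0.15, against 0.015 over all tested probes, 52.6% of which were higher. Taking the brightest tested probe of each gene, 91 of 95 genes were higher, with a median of 0.15, against 56.3% and 0.032 over 16498 genes. At an unadjusted p under 0.05, 26 member probes were higher in Tx (7.17% of all tested probes were) and 1 was lower (6.03%). All 4 Tx values lay above all 4 nonTx values for 10 member probes (4.47% of all tested probes), and below them for 0 (3.4%). Those 10 probes belong to Ndufb6, Ndufs7, Ndufa8 and Ndufa13 of complex I, Sdhd, Uqcrfs1, Cox5a and Cox7c, the assembly factor Ndufaf2, and Atp5sl. Ndufa8, Ndufa13 and Atp5sl are named here after their values were seen. For Ndufa13 it was a dim probe (0.36 ± 0.14, SE), while the groups overlapped on its bright probe (0.12 ± 0.09).

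The signals as deposited, without scaling, overlapped between the groups for nearly all members. The arithmetic mean of the signal was higher in Tx for 71 of the 140 probes (50.7%, against 26.7% of all tested probes). By the mean of log2 signals, 66 were higher (24.0% of all tested probes were), and the median log2 difference was -0.0037. Only 3 member probes, for Cox7c, Ndufs7 and Ndufa12, had all 4 unscaled Tx signals above all 4 nonTx signals (0.52% of all tested probes did), and 0 had them all below (4.91%). On each array, the median over the 140 probes of the log2 deviation from the probe's mean was 0.17, -0.058, -0.097 and -0.039 on Tx arrays 1 to 4, against 0.039, -0.027, 0.032 and -0.041 on nonTx arrays 1 to 4. Unscaled, then, Tx replicate 1 stood highest of the 8 and the other 3 Tx arrays lay within or below the nonTx range.

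**Figure D1:**
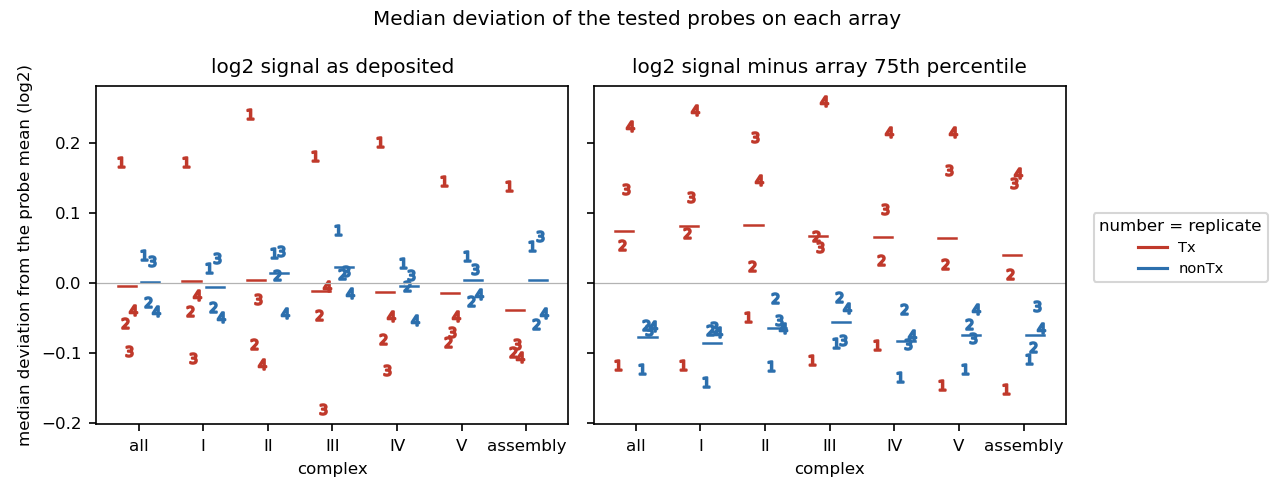
Median over probes of the log2 deviation of each array from the probe's mean over the 8 arrays (y axis), for all tested oxidative phosphorylation probes and by complex (x axis), with the signals as deposited (left) and after scaling to the 75th percentile (right). Numbers are the replicates and bars the group means of 4 arrays. Tx replicate 1 is the highest array on the left and among the lowest on the right.

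After scaling, the same medians were -0.12, 0.054, 0.13 and 0.22 on Tx arrays 1 to 4, against -0.12, -0.060, -0.068 and -0.061 on nonTx arrays 1 to 4. Thus 3 Tx arrays lay above all nonTx arrays and Tx replicate 1 lay among the nonTx arrays, so the groups overlapped. The group means of these medians were 0.074 ± 0.15 in Tx and -0.078 ± 0.030 in nonTx (SD, n = 4 each). In each complex and in the assembly factors, Tx replicates 2 to 4 likewise lay above all nonTx arrays and Tx replicate 1 within or below them.

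How far the members stood from 0 depended on the scaling. The median was 0.15 with the authors' deposited log2 values, 0.17 with arrays centred on the median of tested probes and 0.13 with normexp background correction. It was 0.019 with quantile normalization (86 of 140 probes higher), 0.027 with arrays centred on bright probes (88 higher), -0.0037 without scaling (66 higher) and -0.082 with arrays centred on the spike-in RNAs (21 higher). The median of all tested probes moved as well, to 0.041 with normexp, -0.0034 with quantile normalization, -0.11 with bright probes, -0.14 without scaling and -0.22 with spike-in RNAs. Relative to that median, the members stood 0.14 higher at the 75th percentile, with median centring, with bright probes, without scaling and with spike-in RNAs. These settings differ only by a shift common to all probes of an array, so they cannot change this distance and are not separate results. With normexp and quantile normalization, which can change it, the members stood 0.088 and 0.023 higher.

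**Figure D2:**
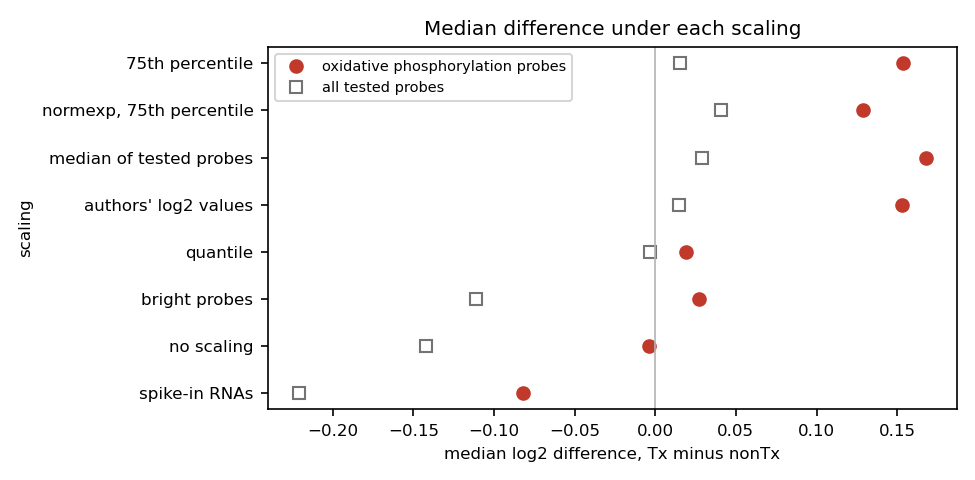
Median log2 difference, Tx minus nonTx (x axis), of the 140 oxidative phosphorylation probes (filled circles) and of all 30955 tested probes (open squares) under each scaling (y axis). The members' median runs from 0.17 with median centring to -0.082 with spike-in RNAs. It lies right of that of all probes in each row. Only the normexp and quantile rows could change the distance between circle and square, since the other scalings shift all probes of an array alike.

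The members are bright probes, 105 of 140 being in the brightest 20% of tested probes. In that range the members' median was 0.17 with 103 of 105 higher, and the other 6086 probes there had a median of 0.13 with 80.0% higher. The median of the other probes was lower where they were dimmer, at 0.044, -0.0069, -0.052 and -0.16 in the next dimmer steps of 20%. The members in those steps had medians of 0.054 (13 probes), 0.029 (7 probes), 0.010 (12 probes) and 0.16 (3 probes). Other probes as bright as most members thus also had differences mostly above 0.

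**Figure D3:**
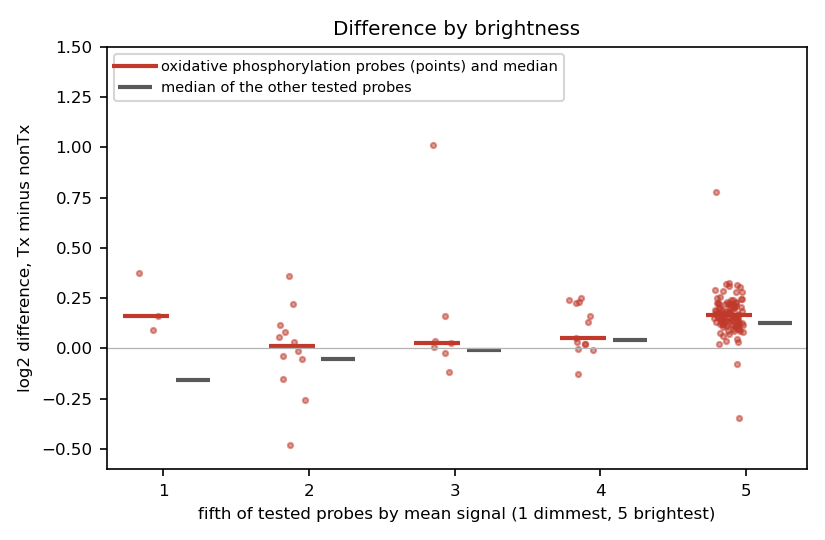
Log2 difference, Tx minus nonTx, scaled to the 75th percentile (y axis), by step of 20% of the tested probes in mean signal (x axis). Points are the 140 oxidative phosphorylation probes and red bars their medians, with the medians of the other tested probes as grey bars, which climb from -0.16 in the dimmest to 0.13 in the brightest step.

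Complex I, which takes electrons from NADH, had the largest set of genes. On the brightest probe all 36 genes had a higher scaled mean in Tx, between 0.037 and 0.33, and 10 of them had an unadjusted p under 0.05 (8.66% of all tested genes were higher at that p, and 5.25% lower). Higher at that p were also 1 of 4 genes in complex II, 2 of 8 in III, 2 of 16 in IV, 1 of 15 in V and 2 of 12 assembly factors. The median over the 53 probes of complex I was 0.18. Without scaling it was 0.020, the only median of a complex above 0, beside -0.0012 for IV and -0.010 for V. On the 4 Tx arrays the unscaled medians of complex I had an SD of 0.12, so its sign does not set complex I apart. With spike-in centring the median was -0.058. The smallest p belonged to Ndufb6, an accessory subunit of the membrane arm, with signals of 14732, 12040.5, 11554 and 11707 in Tx replicates 1 to 4 and 11352, 11717, 11711 and 10084 in nonTx replicates 1 to 4. Scaled, all 4 Tx values were above the nonTx values, and the difference was 0.31 ± 0.08 (SE; limma, adjusted p = 0.283).

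Ndufs7, the core subunit that carries iron-sulfur cluster N2, had signals of 28759.9, 26419, 25456 and 24448 in Tx and 24017, 23009, 22904 and 23401 in nonTx replicates 1 to 4. Here the groups did not overlap even as deposited, and the scaled difference was 0.33 ± 0.09 (limma, adjusted p = 0.29). The accessory subunit Ndufa12 had signals of 24757, 22523, 24339 and 23712 in Tx and 20728, 22144, 20450.0 and 21726 in nonTx livers, which were apart as deposited but overlapped after scaling (0.32 ± 0.12, limma adjusted p = 0.335). Ndufa3, another accessory subunit, had a difference of 0.29 ± 0.10 (limma, adjusted p = 0.324) with overlapping groups.

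Other core subunits of complex I had smaller differences than Ndufs7. Ndufs1, the largest iron-sulfur subunit, had 11628 to 15865 in Tx and 12402 to 13993 in nonTx livers and a difference of 0.07 ± 0.07. Ndufv1, which binds FMN and NADH, had a difference of 0.16 ± 0.10. For both of these the signals of the groups overlapped. The smallest differences in the complex were those of the accessory subunits Ndufa9 (0.04 ± 0.08) and Ndufa6 (0.06 ± 0.09), with adjusted p of 0.841 and 0.766 (limma).

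Complex II links the tricarboxylic acid cycle to the chain. All 4 of its genes were higher on the brightest probe after scaling, and the median over 8 probes was 0.12, but -0.0075 with bright-probe centring, -0.038 without scaling and -0.12 with spike-in centring. Sdhd, a membrane anchor of the complex, whose promoter is shown above, had signals of 30540.0, 21245, 19448 and 20539 in Tx and 23712, 20530.3, 22267 and 21879 in nonTx replicates 1 to 4. As deposited, Tx replicate 1 was the highest and the other 3 overlapped with nonTx, whereas after scaling all Tx values lay above all nonTx values (0.19 ± 0.07, limma, adjusted p = 0.338). The other anchor, Sdhc, had 0.11 ± 0.08, the flavoprotein Sdha 0.14 ± 0.09 and the iron-sulfur subunit Sdhb 0.10 ± 0.12, all 3 with overlapping groups. These are the brightest probes. The differences ran from -0.052 to 0.14 over the 4 tested probes of Sdha and from 0.095 to 0.31 over the 2 of Sdhb.

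Complex III passes electrons to cytochrome c. All 8 genes were higher after scaling, between 0.032 and 0.24, with a median of 0.11 over 11 probes that was -0.0067 with quantile normalization, -0.016 with bright-probe centring, -0.047 without scaling and -0.13 with spike-in centring. The Rieske iron-sulfur protein Uqcrfs1 had signals of 22537, 19017, 19192 and 18016 in Tx and 20064, 18431, 19524 and 16154 in nonTx replicates 1 to 4. These overlapped as deposited and were apart after scaling, with a difference of 0.24 ± 0.09 (limma, adjusted p = 0.327). Uqcrh, the acidic hinge protein, had a difference of 0.23 ± 0.10 (limma, adjusted p = 0.358). Of the core proteins, Uqcrc1 had 0.24 ± 0.13 and Uqcrc2 0.05 ± 0.08, and the smallest value was that of Uqcrb, a quinone-binding subunit, at 0.03 ± 0.10.

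Complex IV reduces oxygen, and several of its subunits come in a form common to most tissues and a form restricted to muscle, lung, testis or other tissues. Of its 16 tested genes 15 were higher after scaling, and the median of its 17 probes was 0.16, but -0.0012 without scaling and -0.080 with spike-in centring. Cox5a, a matrix-side subunit, had signals of 83836, 65471, 71533 and 67561 in Tx and 65552, 69072, 71204 and 65169.8 in nonTx replicates 1 to 4. The groups overlapped as deposited, and after scaling all Tx values lay above all nonTx values, with a difference of 0.24 ± 0.09 (limma, adjusted p = 0.345). Its partner Cox5b had 0.17 ± 0.09, and Ndufa4, once counted to complex I and now placed in complex IV, 0.20 ± 0.10 (limma, adjusted p = 0.392).

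The common isoforms gave scaled differences of 0.09 for Cox4i1, 0.09 for Cox6a1, 0.17 for Cox6b1, 0.23 for Cox7a2, 0.20 for Cox7b and 0.14 for Cox8a, with overlapping groups for each of the 6. With quantile normalization the sign of Cox4i1 turned, to -0.055 ± 0.054, and with spike-in centring all 6 differences were below 0 and smaller than their standard errors, Cox6a1 being the lowest at -0.15 ± 0.24. Cox7a2 alone among them had an unadjusted p under 0.05 (0.0485; limma, adjusted p = 0.376).

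The restricted isoforms split in detection. Cox7b2 and Cox8c, known from testis, and Cox8b, known from heart, skeletal muscle and brown fat, were well above background on 0 of 8 arrays. Well above background on all 8 arrays were Cox4i2, known from lung, the muscle form Cox6a2, the testis form Cox6b2, the muscle form Cox7a1 and the hypoxia-induced Ndufa4l2. Cox6a2 was dim, at 25.9, 22.1, 28.5 and 24.1 in Tx and 24.5, 46.9, 19.8 and 17.1 in nonTx replicates 1 to 4, nonTx replicate 2 being the highest. Cox7a1 had 699.8 to 859 in Tx and 713 to 989 in nonTx livers, a difference of 0.05 ± 0.14. Cox4i2 had 0.04 ± 0.12, Cox6b2 -0.12 ± 0.17 and Ndufa4l2 0.01 ± 0.15, so none of these 5 stood apart between the groups.

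Most markers of striated muscle and fat, tissues known for several of these isoforms, were not well above background on all arrays. Of 8 skeletal muscle markers 4 were well above background on all arrays, and Acta1 and Mb on none, with a summed signal of 252 to 330 on Tx and 269.6 to 321 on nonTx arrays. The skeletal muscle marker Pygm, named after its values were seen, was higher in Tx at an unadjusted p under 0.05 (difference 0.56) and not at an adjusted p (limma). Of 6 cardiac markers 1 was, and Myh6, Nppa and Tnni3 were on none (sum 75.3 to 185 on Tx, 91.4 to 140.4 on nonTx arrays). Of 4 brown adipocyte markers 1 was, and Ucp1, Cidea and Dio2 were on none (sum 169 to 298 on Tx, 66.3 to 231 on nonTx arrays). Of 4 adipocyte markers 1 was, and Adipoq, Plin1 and Retn were on none (sum 292 to 352 on Tx, 275 to 369 on nonTx arrays). Vascular smooth muscle markers were brighter: 3 of 4 were well above background on all arrays, and Cnn1 on none, with a summed signal of 2298 to 3662 on Tx and 2397 to 3672 on nonTx arrays. The part of these cells in the isoform signals was not tested.

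Complex V turns the proton gradient into ATP. All 15 genes were higher after scaling, between 0.023 and 0.25, and the median of its 29 probes was 0.15, but -0.010 without scaling and -0.089 with spike-in centring. Atp5h, subunit d of the peripheral stalk, had signals of 52177, 47989, 46247 and 48001 in Tx and 46843, 46693, 46710.1 and 45117 in nonTx replicates 1 to 4. Tx replicate 3 lay within the nonTx range as deposited, and the scaled difference was 0.23 ± 0.10 (limma, adjusted p = 0.375). A second of its 3 probes gave 0.26 ± 0.11 (limma, adjusted p = 0.373) and the remaining one 0.12 ± 0.16.

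Atp5e, the epsilon subunit of the central stalk, had a difference of 0.25 ± 0.12 (limma, adjusted p = 0.4), and Atp5j2, subunit f, 0.19 ± 0.11. The subunits of the catalytic head had 0.12 ± 0.12 for Atp5a1 (alpha) and 0.02 ± 0.11 for Atp5b (beta), whose signals overlapped throughout. These are the brightest probes. The differences ran from 0.023 to 0.24 over the 3 tested probes of Atp5b and from 0.12 to 0.21 over the 2 of Atp5a1. The genes for the membrane ring, which encode the same mature subunit c, had 0.22 ± 0.13 for Atp5g1, 0.17 ± 0.12 for Atp5g2 and 0.10 ± 0.08 for Atp5g3. On this brightest probe none of the ring genes reached an unadjusted p under 0.05.

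Among the assembly factors, which help to build the complexes without staying in them, 9 of 12 genes were higher after scaling, with a median over 17 probes of 0.11 that was -0.022 with bright-probe centring, -0.052 without scaling and -0.13 with spike-in centring. Sdhaf4, which acts on the complex II flavoprotein, had signals of 4414, 4405, 4027 and 4318 in Tx and 3949.8, 3670.3, 4092 and 3678 in nonTx replicates 1 to 4, with overlap, and a difference of 0.32 ± 0.11 (limma, adjusted p = 0.324). For the complex I factors, Ndufaf6 had 0.25 ± 0.09 (limma, adjusted p = 0.335) and Ndufaf2 0.14 ± 0.08. The lowest values were those of Ndufaf8 at -0.13 ± 0.11 and Sdhaf3 at -0.02 ± 0.10. The supercomplex factor Cox7a2l had 0.15 ± 0.08.

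**Figure D4:**
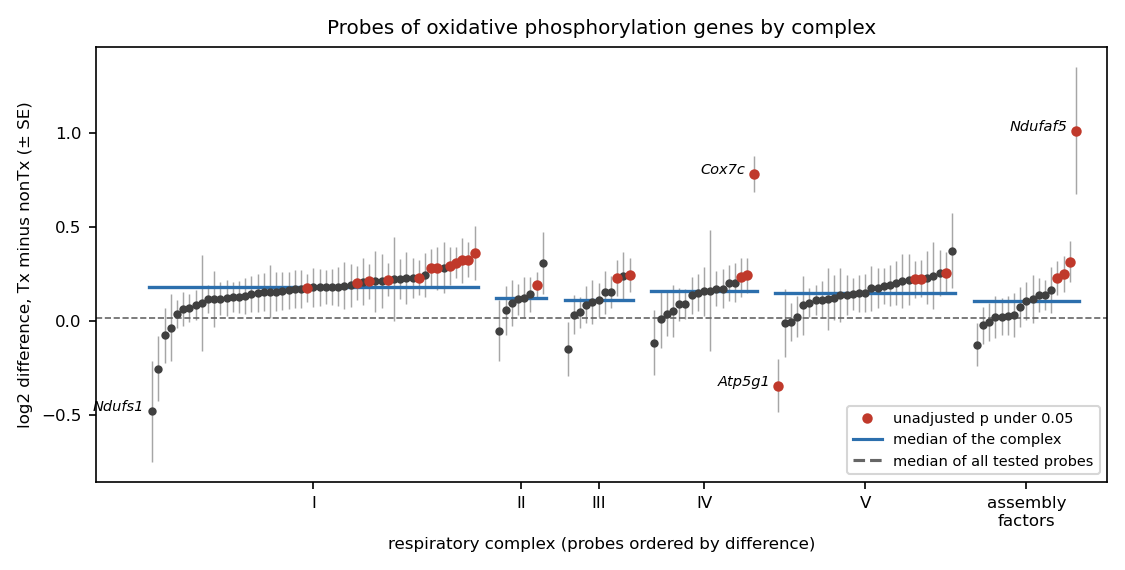
Log2 difference, Tx minus nonTx, scaled to the 75th percentile, with its standard error (y axis), for the tested probes of each complex and of the assembly factors in order of size (x axis). Red points have an unadjusted p under 0.05, blue lines are the medians of the complexes (0.11 to 0.18) and the dashed line is the median of all tested probes (0.015). No point passes an adjusted p of 0.05, and the blue lines are below 0 for all complexes with spike-in centring.

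Probes of the same gene gave different answers in a few cases. Of 34 genes with at least 2 tested probes, the differences lay a median of 0.12 apart. In 6 genes they lay more than 0.3 apart, and in 4 of these more than 0.5, and in 3 of the 6 a probe above 0.1 stood beside a probe below -0.1. Smaller gaps across 0 were seen in Ndufa5 (-0.075 and 0.17), Ndufv3 (-0.037 and 0.16), Sdha (-0.052 to 0.14), Atp5f1 (-0.011 to 0.22) and Atp5g3 (-0.0048 and 0.097). Of these, Ndufa5, Ndufv3 and Atp5f1 are named here after their values were seen. In 7 genes (Ndufa7, Ndufs5, Uqcrfs1, Ndufa4l2, Atp5d, Ndufaf5 and Sdhaf3) a probe was well above background on all 8 arrays and another on none. A level was not set against that of another probe, since probes differ in how strongly they bind.

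Cox7c, a small membrane subunit of complex IV, had the smallest p of all members on its dimmer probe. That probe, A_52_P136153, had signals of 5775, 3802, 3709 and 4206 in Tx and 3272, 2801, 2671 and 2493 in nonTx replicates 1 to 4. The lowest Tx signal was above the highest nonTx signal as deposited, and the scaled difference was 0.78 ± 0.09, or 1.72-fold (limma, adjusted p = 0.0577). It passed 0.05 with normexp (adjusted p = 0.037), robust variance (0.0457), array weights (0.041) and without Tx replicate 2 (0.00655), the range over the alternatives being 0.00655 to 0.56. The brighter probe, A_55_P1999841, had signals of 23773, 18242, 15725 and 20475 in Tx and 19522, 19422, 20090.1 and 18670.1 in nonTx replicates 1 to 4, which overlapped, and a difference of 0.15 ± 0.10 (limma, adjusted p = 0.493). Both probes carry the same transcript accession in the files, so the accession does not tell them apart.

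Ndufaf5, a complex I assembly factor that modifies a core subunit, had the largest difference among the members. On probe A_55_P2138343 the signals were 214, 445, 542 and 404 in Tx and 226, 225, 239 and 161 in nonTx replicates 1 to 4, so that 3 Tx livers were above all nonTx livers and Tx replicate 1 was within the nonTx range. The difference was 1.01 ± 0.34 (limma, adjusted p = 0.318), and it ran from 0.79 to 1.41 when arrays were left out in turn, the highest without Tx replicate 1. Probe A_66_P132685 gave 528, 541, 515 and 493 in Tx and 497, 533, 549.6 and 489.6 in nonTx replicates 1 to 4, with overlap and a difference of 0.16 ± 0.12, and the other probe was at background on all arrays.

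Atp5g1 held the only member probe that was lower in Tx at an unadjusted p under 0.05. Probe A_55_P1956064 had signals of 5501, 3691, 3003 and 3428 in Tx and 7280.2, 4326, 4714 and 5651 in nonTx replicates 1 to 4, with Tx replicate 1 inside the nonTx range, and a difference of -0.34 ± 0.14 (limma, adjusted p = 0.358). The other tested probes of the gene gave 0.22 ± 0.13 and 0.23 ± 0.14, both above 0.

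In the remaining 3 genes the probe that differed was dim. For Ndufs1 it had 26.1 to 100.2 in Tx and 58.0 to 94.1 in nonTx livers and gave -0.48 ± 0.27, against 0.07 ± 0.07 on the bright probe. For Ndufa10, an accessory subunit of complex I, it had 25.7 to 60.3 in Tx and 47.1 to 51.6 in nonTx livers and gave -0.25 ± 0.17, against 0.13 ± 0.09 and 0.16 ± 0.14. For Uqcrb it had 35.9 to 67.7 in Tx and 50.8 to 64.1 in nonTx livers and gave -0.15 ± 0.14, against 0.03 ± 0.10 and 0.15 ± 0.09. All 3 dim probes were below 0 while the brighter probes of the same genes were above 0, and none had an adjusted p under 0.05.

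**Figure D5:**
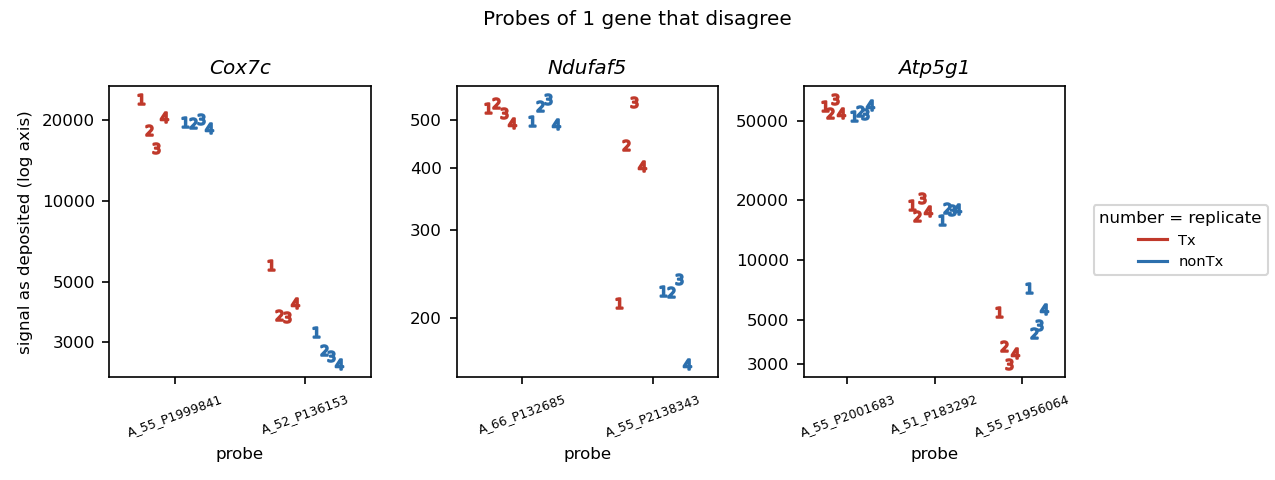
Signals as deposited, on a log axis (y axis), of the tested probes (x axis) of Cox7c, Ndufaf5 and Atp5g1, with Tx in red and nonTx in blue and numbers for the replicates. Only the groups within a probe can be compared. The dimmer Cox7c probe has all Tx above all nonTx signals, the other Cox7c probe overlaps, and the dimmest Atp5g1 probe is lower in 3 of 4 Tx livers than in any nonTx liver.

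The partners of these genes outside the name rule were read on 6 lists of 95 genes, 90 of them tested, of which 70 were higher and 20 lower after scaling, with a median of 0.10 (-0.0066 with quantile normalization, -0.022 with bright-probe centring, -0.053 without scaling and -0.13 with spike-in centring). None had an adjusted p under 0.05, and 14 were higher (8.66% of all tested genes) and 0 lower (5.25%) at an unadjusted p under 0.05. Subunits encoded in mitochondrial DNA had a median of 0.061 with 9 of 11 higher. The largest signals among them overlapped between the groups, as for Co1, the catalytic subunit of complex IV, with 115697 to 149113 in Tx and 132959.7 to 172206 in nonTx livers (-0.07 ± 0.09). Co2, which takes electrons from cytochrome c, had 115453, 119414, 109997 and 105918 in Tx and 112859, 102576, 100724 and 95434 in nonTx replicates 1 to 4 and a difference of 0.29 ± 0.11 (limma, adjusted p = 0.342), and Atp8 of complex V had 0.19 ± 0.10.

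Electron carriers and other nuclear subunits were higher in 9 of 9 genes, with a median of 0.18. The somatic cytochrome c gene Cycs gave 0.26 ± 0.09 on its brighter and 0.34 ± 0.12 on its dimmer probe (limma, adjusted p = 0.322 for both), and 2010107E04Rik, a small ATP synthase subunit, 0.21 ± 0.09. Assembly factors outside the rule were higher in 27 of 35 genes (median 0.12), and the smallest p were those of Coa6, a copper factor of complex IV, at 0.27 ± 0.08, and of Bcs1l, the chaperone that inserts the Rieske protein, at 0.34 ± 0.11. Tricarboxylic acid cycle enzymes were higher in 11 of 13 genes (median 0.15), with Mdh2, malate dehydrogenase, at 0.22 ± 0.09 and Ogdh, oxoglutarate dehydrogenase, at 0.21 ± 0.08. Membrane carriers were higher in 7 of 8 (median 0.11), with the outer membrane channel Vdac1 at 0.22 ± 0.09 and the ATP carrier Slc25a5 at 0.18 ± 0.08. Regulators of mitochondrial biogenesis split evenly, with 7 of 14 higher and a median of 0.0082, and the smallest p were those of Tfb1m, which methylates mitochondrial ribosomal RNA, at -0.14 ± 0.10, and the transcription factor Nrf1 at -0.13 ± 0.10.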

How the data were processed

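The liver RNA samples, 4 Tx and 4 nonTx, were run on one-colour Agilent arrays, all on 1 slide and scanned together. Tx arrays filled a slide row and nonTx arrays the other, so row and group cannot be told apart. The deposited intensity values are background-subtracted signals made, per the file headers, with Feature Extraction version 10.7.1.1 (9.1 per the submitters' processing notes). The table's log2 values were scaled by the authors to the 75th percentile and centred per probe, as found by rebuilding them within 0.0016.

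Each log2 intensity had the 75th percentile of its array subtracted, without control spots, with spots of a probe averaged and with outlier spots set to missing (54 to 120 per array, 0 among members). Probes that cleared background well on 3 or more of the 4 arrays in Tx or in nonTx (30955) were fitted with limma 3.58.1 in R 4.3.3 (lmFit, then eBayes with intensity trend, residual df 6), p-values being adjusted by Benjamini-Hochberg over these probes and called under 0.05. Files were read with data.table, version 1.17.8. Errors of differences are standard errors. The fit was tested on simulated data. Python 3.11.15 was used for promoters and figures.

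Members and lists were chosen with earlier results of these data known. Genes named were those with the smallest p and the most extreme differences in each complex, tissue-restricted isoforms, core subunits, genes whose probes disagree (differences over 0.3 apart, or above 0.1 and below -0.1) and, per other list, the 2 smallest p. A gene that this rule names is not reported here. The alternatives were normexp (offset 50), quantile normalization, 4 other scalings, the authors' values, 2 filters, 3 variance settings, a replicate block and each array left out.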

Additional observations from a re-analysis of the deposited data

Results flagged for a closer look

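In 136 groups of 4 arrays (named probes and array medians, scaled to the 75th percentile), 9 had 1 array far from the other 3 by Dixon's test, where chance flags about 1 in 20 groups. Values are the array minus the mean of the other 3 arrays of its group on the log2 scale. In Tx livers, Ndufaf5 was at -0.458 in replicate 1 on its probe A_66_P132685, and Ndufaf2 at 0.209 in replicate 4. In nonTx livers, replicate 4 was low for Uqcrfs1 (-0.181) and Cox4i1 (-0.04), replicate 3 was high for Ndufaf2 (0.08), and replicate 1 was low for Uqcrh (-0.071) and for the dim Ndufa10 probe A_55_P2717274 (-0.187). The median deviation over all members was low in nonTx replicate 1 (-0.06), as was that over complex I (-0.074).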

How the results depend on the processing

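The count of member probes with an adjusted p under 0.05 was 0, and 1 (Cox7c) with normexp, robust variance, array weights and without Tx replicate 2 (0 to 1 when arrays were left out in turn). The median of the members (0.15) was 0.019 with quantile normalization, 0.027 with bright-probe centring, -0.0037 without scaling and -0.082 with spike-in centring, 0.10 to 0.21 with arrays left out, and 0.15 on the brightest probe of each gene, an alternative chosen after seeing the data. The unscaled median (-0.0037) ran from -0.069 without Tx replicate 1 to 0.022 without Tx replicate 2, so its sign rests on single arrays. Reversed medians with quantile normalization were complex III (-0.0067) and other oxidative phosphorylation genes (-0.0066), and for Cox4i1 the value was -0.055. With bright-probe centring they were complex II (-0.0075), complex III (-0.016), assembly factors (-0.022) and other genes (-0.022). Without scaling they were complex II (-0.038), III (-0.047), IV (-0.0012), V (-0.010), assembly factors (-0.052) and other genes (-0.053). With spike-in centring they were complex I (-0.058), II (-0.12), III (-0.13), IV (-0.080), V (-0.089), assembly factors (-0.13) and other genes (-0.13). The cause was not tested.

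At an unadjusted p under 0.05, 26 of 140 member probes were higher in Tx, against 7.17% of all tested probes. Each count below has that share under the same setting in brackets. The count was 71 without Tx replicate 1 (12.3%), 17 without Tx replicate 2 (8.30%), 11 without Tx replicate 3 (5.24%) and 8 without Tx replicate 4 (4.41%). It was 11 to 13 without a nonTx replicate (5.14% to 5.58%), each of these fits having fewer samples. With array weights it was 48 (9.03%), and without a variance trend 16 (5.83%). It was 7 with quantile normalization (4.72%), 4 with bright-probe centring (1.96%), 2 without scaling (1.07%) and 1 with spike-in centring (0.714%). Over all probes, 188 passed the adjusted threshold without Tx replicate 2 and 198 with spike-in centring, against 0. Genes whose probes disagree numbered 6, also with the gap set at 0.5 (4 by that gap alone), and 5 to 9 with arrays left out. With the replicate number as a block (replicate block) 0 members passed and the median was 0.15. The samples share only a number: deviations of same-numbered arrays correlated at 0.045, 0.081, 0.099 and -0.011, and 3 of 8 arrays correlated best with their own number. A block for slide or scan was not run, since all arrays share both. All 10 spike-in RNAs, of which the 8 well above background on all arrays were used for centring, were higher in Tx after scaling to the 75th percentile.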
